A study of Rattus norvegicus with 19 samples.

Results

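Krt7, Krt8, Krt18, Krt19 and Vim encode the intermediate filament proteins of simple epithelia and of mesenchymal cells. They were measured here in the renal cortex of male Crl:CD (SD) rats with streptozotocin-induced diabetes, with or without enarodustat, and of non-diabetic Sham rats. The genes were taken by name from the array annotation, and made up 5 of the 24217 genes tested and 8 of the 45598 probe names on the array. The set was proposed with earlier results of the DKD against Sham comparison known, in which Krt7 was lower and Krt8 higher, so the values of that comparison are given as a description. All 8 probes were well above background on all 19 arrays, none was saturated, and all 5 genes passed the filter on dim probes.

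The DKD+enarodustat group (n = 7) received 65 mg/kg of streptozotocin intravenously 7 days before grouping and then feed containing 0.01% enarodustat by weight. The DKD group (n = 7) received the same streptozotocin dose and normal feed, and the Sham group (n = 5) received vehicle and normal feed. Kidneys were taken 14 days after grouping, and each array carried the RNA of 1 labelled replicate. The 14 diabetic rats were picked from 19 injected rats so that the DKD+enarodustat and DKD groups matched in blood glucose and body weight, and the 5 other injected rats were not used. No age is given in the sources used here. Enarodustat stabilises hypoxia-inducible factor (HIF) by inhibiting the prolyl hydroxylases that mark it for degradation, and streptozotocin kills the insulin-producing beta cells of the pancreas, so the model is one of insulin loss.

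Keratins form filaments as pairs of a type II and a type I protein. In simple epithelia Krt8 (type II) pairs with Krt18 (type I), and Krt7 (type II) and Krt19 (type I) are typical of ducts, in the kidney the collecting duct and the urothelium of the pelvis. Injury to tubules is known to raise Krt8, Krt18 and Krt19 in mouse and human kidney. Vimentin, the protein of Vim, forms filaments with itself; it marks stromal and endothelial cells, podocytes and leukocytes, and appears in proximal tubule cells that regenerate.

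The probes are 60 bases long, and 6 of the 8 sequences are shown because each level below is the reading of 1 probe, and the group differences of Krt7 and Krt18 are later given probe by probe. Positions are those of the array files on rat build rn4. No part of these sequences is marked by capitals.
Krt7, the second probe: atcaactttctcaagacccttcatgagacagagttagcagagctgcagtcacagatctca
Krt7, the third probe: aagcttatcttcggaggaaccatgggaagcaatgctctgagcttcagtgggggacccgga
Krt8: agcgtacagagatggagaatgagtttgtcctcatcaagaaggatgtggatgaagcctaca
Krt18, the second probe: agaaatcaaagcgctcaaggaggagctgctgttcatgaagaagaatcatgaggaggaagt
Krt19: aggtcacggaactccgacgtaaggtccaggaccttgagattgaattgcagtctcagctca
Vim: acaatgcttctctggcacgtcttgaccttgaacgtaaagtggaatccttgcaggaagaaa
The Krt8 probe was placed at chr7:140716967-140717949 on the minus strand, a span of 983 bases for a 60-base probe. The Krt19 probe was placed at chr10:89081437-89081496 on the minus strand and the Vim probe at chr17:87851390-87851449 on the plus strand. The first probe of Krt7 was placed at chr7:140175626-140175685 on the plus strand and holds the polyadenylation hexamer AATAAA from base 33; the first probe of Krt18 holds the same hexamer from base 42 and has no position in the files. The sequences of these first probes are not shown. The second Krt18 probe was placed at chr2:80043817-80043876 on the plus strand, whereas RefSeq has Krt18 on chromosome 7, and what else its signal may hold was not tested. The first probes of Krt7 and Krt18 and the Vim probe had 10 spots each on an array, and the other 5 probes had 1 spot.

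Levels are normalised log2 values: log2 of the scanner's processed intensity minus the 75th percentile of the array, so 0 is that percentile and 1 unit is a doubling. A level is compared only with other levels of the same probe. Spots of 1 probe on 1 array differed little, with a median SD of 0.0459 for Krt7, 0.0388 for Krt18 and 0.0674 for Vim on the log2 scale. Between 54.38% and 67.26% of probes were well above background on an array. The 3 slides each held arrays of all 3 groups, but the slide row did not: all DKD+enarodustat arrays lay in row 2, all Sham arrays in row 1, and the DKD arrays in row 1 except replicates 2 and 4 in row 2. Within DKD+enarodustat against Sham, row and group cannot be told apart except through those DKD arrays. Because the RNA is that of whole cortex, fewer cells of a type and less RNA per cell cannot be told apart.

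**Figure D1:**
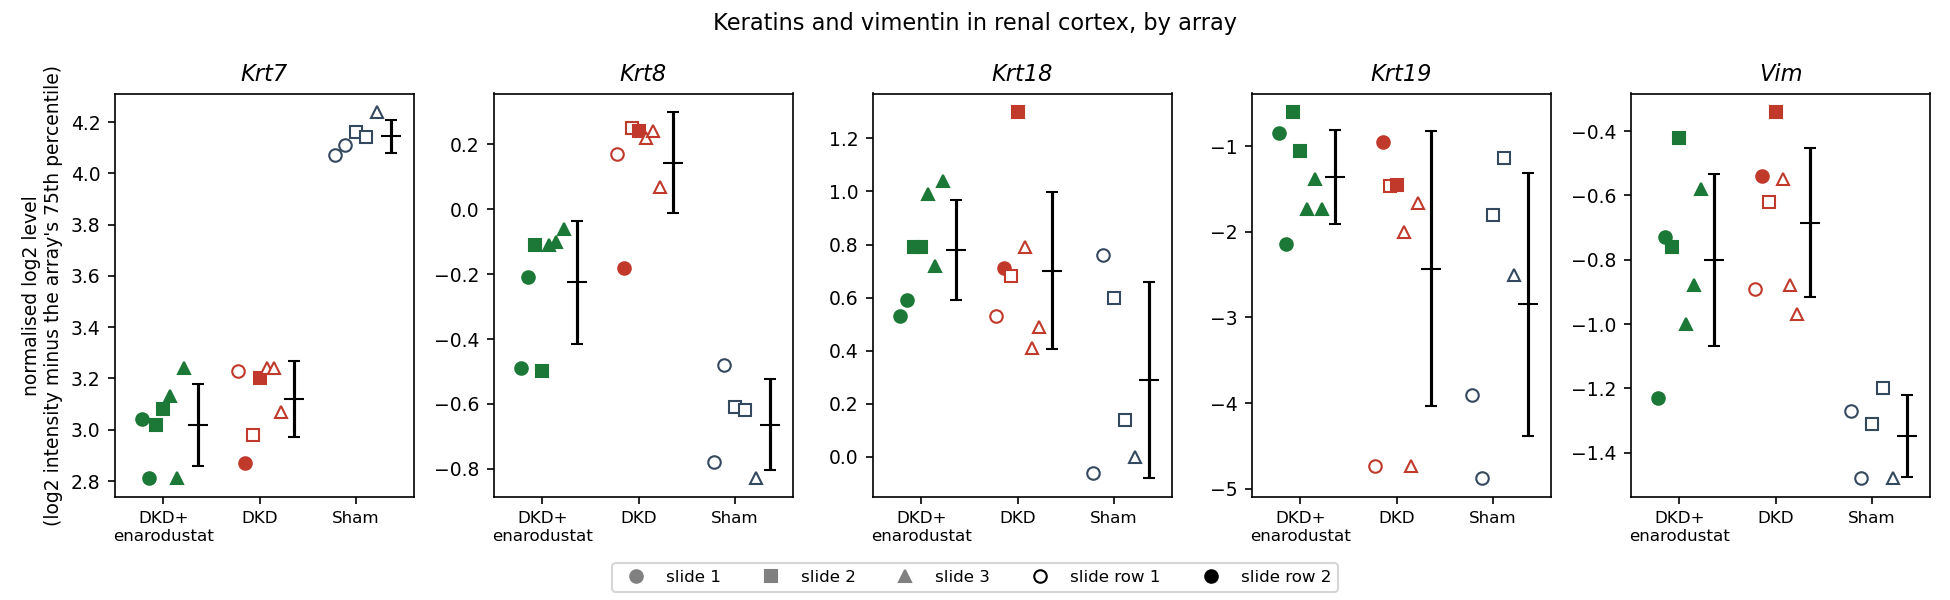
Normalised log2 level (y axis) of the 5 genes on each of the 19 arrays, by group (x axis); marker shape gives the slide, open markers slide row 1 and filled markers slide row 2, and the bars the group mean ± SD. Krt7 lay from 2.81 to 3.24 over the diabetic arrays and from 4.07 to 4.24 in Sham, while Krt8 and Vim were higher in every DKD array than in every Sham array.

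Krt7 was lower in diabetic cortex whether or not the rats received enarodustat. Its first probe read 2.81, 3.04 and 3.24 (lowest, median, highest) in DKD+enarodustat rats, 2.87, 3.20 and 3.24 in DKD rats, and 4.07, 4.11, 4.16, 4.14 and 4.24 in the 5 Sham rats. The diabetic groups lay over each other, and no diabetic array reached any Sham array. DKD differed from Sham by -1.02 ± 0.08 (log2, SE of the fit), which is 0.492 times the Sham level. The difference was -1.04, -1.05 and -1.06 within slides 1, 2 and 3, and -0.99 within row 1, where 5 DKD arrays stood against 5 Sham arrays.

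Krt8, the other type II keratin, was higher in DKD than in Sham and lay between them in DKD+enarodustat. Its levels were -0.50, -0.11 and -0.06 (lowest, median, highest) in DKD+enarodustat rats, -0.18, 0.22 and 0.25 in DKD rats, and -0.78, -0.48, -0.61, -0.62 and -0.83 in Sham rats. Every DKD array was above every Sham array. Of the 7 DKD arrays, 6 were above every DKD+enarodustat array, and the exception was replicate 2 at -0.18. DKD exceeded Sham by 0.81 ± 0.10 on the log2 scale (1.75-fold), by 0.62, 0.87 and 1.01 within the slides and by 0.85 within row 1.

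Krt18, the type I partner of Krt8, differed less. It read 0.53, 0.79 and 1.04 (lowest, median, highest) in DKD+enarodustat rats, 0.41, 0.68 and 1.30 in DKD rats, and -0.06, 0.76, 0.60, 0.14 and 0.00 in Sham rats. Sham replicates 2 and 3 lay among the diabetic arrays and the other 3 Sham arrays below all of them. DKD minus Sham was 0.41 ± 0.16 (log2), and 0.29 within row 1.

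Krt19 varied widely between arrays of the DKD and Sham groups. It read -2.14, -1.39 and -0.60 (lowest, median, highest) in DKD+enarodustat rats, -4.74, -1.66 and -0.95 in DKD rats, and -3.91, -4.88, -1.80, -1.14 and -2.51 in Sham rats. Levels under -3, a bound set after the values were seen, were read on 4 arrays, DKD replicates 1 and 6 and Sham replicates 1 and 2. All 4 of these were among the 10 arrays of row 1, and the 9 arrays of row 2 read -2.14 to -0.60. The probe has 1 spot, so no second spot on those arrays can be set beside it. The same 4 arrays were also the lowest in the authors' deposited value table, at 7.22 for DKD replicate 1, 6.64 for DKD replicate 6, 7.48 for Sham replicate 1 and 7.15 for Sham replicate 2 (log2). The group SD was 0.55 in DKD+enarodustat, 1.61 in DKD and 1.53 in Sham, and DKD minus Sham was 0.42 ± 0.72 (log2), or -0.07 within row 1.

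Vim was higher in both diabetic groups. It read -1.23, -0.76 and -0.42 (lowest, median, highest) in DKD+enarodustat rats, -0.97, -0.62 and -0.34 in DKD rats, and -1.27, -1.48, -1.31, -1.20 and -1.48 in Sham rats. Every DKD array was above every Sham array, and 6 of the 7 DKD+enarodustat arrays were. DKD exceeded Sham by 0.66 ± 0.13 on the log2 scale (1.59-fold), by 0.66, 0.77 and 0.69 within the slides and by 0.57 within row 1.

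In the fit of all genes, 4140 genes or 17.1% passed the threshold of an adjusted p of 0.05 in DKD against Sham (limma, Benjamini-Hochberg over all genes), 46.9% of them higher. With normexp background correction and quantile normalization 34.7% of the calls were higher. Among the 5 filament genes 3 passed, Krt8 and Vim as higher (8.02% of all genes) and Krt7 as lower (9.07%). The same 3 had no overlap between the groups, as 10.7% of all genes did. As the genes were proposed with this comparison known, these counts are a description.

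Whether the HIF stabiliser moved the filament genes is asked by DKD+enarodustat against DKD, which shares the DKD arrays with the comparison above. Krt8 was proposed as higher in these same DKD arrays, so a lower value against them is favoured by that choice. The p-values for Krt8, and for Krt8 minus Krt18 below, do not allow for this. Krt8 was the 1 gene of the 5 that passed the threshold: its level averaged -0.23 ± 0.19 in DKD+enarodustat and 0.14 ± 0.16 in DKD (SD, n = 7 each), a difference of -0.37 ± 0.09 (log2, 0.774-fold, limma adjusted p = 0.041 over all genes). Of all genes 485 or 2% passed in either direction, and 226 or 0.933% as lower; 53.4% of the calls were higher, and 34.4% in the authors' deposited value table. Krt8 was lower within each slide, at -0.34, -0.55 and -0.27, with no overlap between the groups within any of them. Slides 1 and 2 held 2 arrays of each of these groups and slide 3 held 3. With so few arrays separation is easily met, and its share over all genes within slides was not taken. Over all arrays 0 of the 5 genes had groups without overlap, against 1.25% of all genes. Within row 2, where 7 DKD+enarodustat arrays stood against 2 DKD arrays, the difference was -0.26 and the groups overlapped.

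The Krt8 call stood close to the threshold. With the replicate number as a block, which pairs arrays of 1 slide, the difference was -0.37 with an adjusted p of 0.0684 (limma). With slide row as a covariate it was -0.26 with an adjusted p of 0.661. The call also ended when any 1 of 13 arrays was left out, namely DKD+enarodustat replicates 1, 2, 3 and 4, DKD replicates 1, 3, 4, 5, 6 and 7, and Sham replicates 1, 3 and 4. In those fits the difference was -0.39 to -0.32 and the limma adjusted p 0.0502 to 0.0934.

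The other 4 genes did not pass the threshold in this comparison, and their intervals show what the arrays could resolve. Krt7 differed by -0.10 ± 0.08 (95% interval -0.26 to 0.06, limma adjusted p = 0.656) and Vim by -0.12 ± 0.12 (-0.37 to 0.13, limma adjusted p = 0.78), both on the log2 scale. Krt18 differed by 0.08 ± 0.15 (-0.23 to 0.39, limma adjusted p = 0.924), and by -0.23 with slide row as a covariate. For Krt19 the interval was wide, -0.31 to 2.45 around 1.07 ± 0.66 (limma adjusted p = 0.527). Within row 2 the Krt19 difference was -0.15, and the 2 low DKD arrays are both in row 1; the part of the row in this result was not tested.

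**Figure D2:**
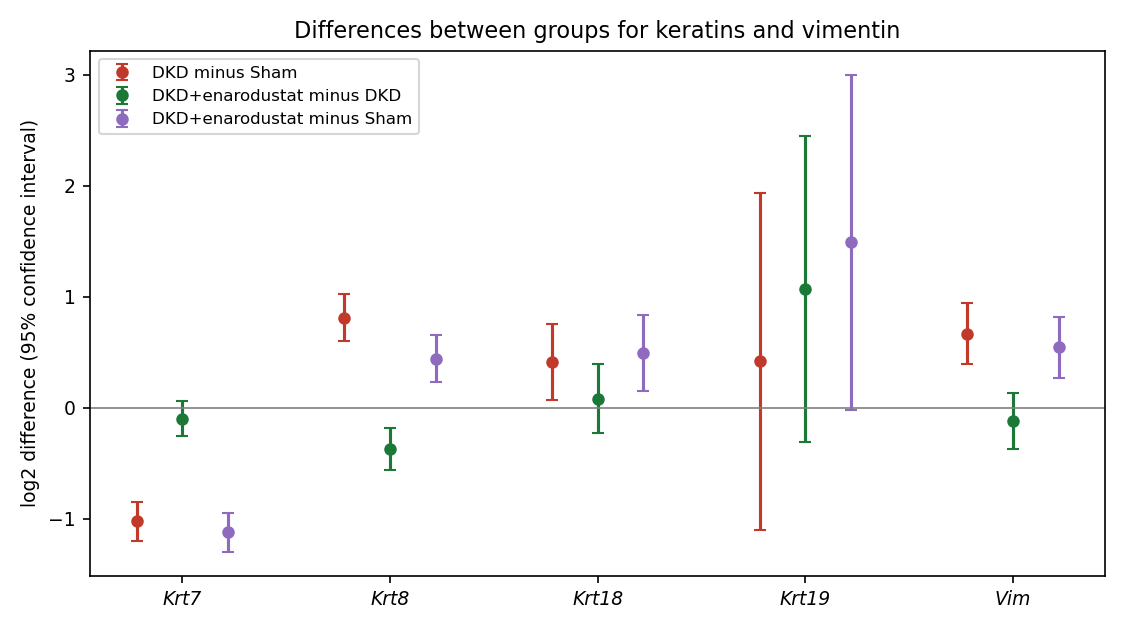
Log2 difference between groups (y axis) for the 5 genes (x axis), with the 95% confidence interval of the limma fit over 19 arrays, in 3 comparisons that share arrays. Krt7 sits near -1 against Sham in both diabetic groups, Krt8 is at 0.81 in DKD minus Sham and at -0.37 in DKD+enarodustat minus DKD, and the Krt19 intervals are the widest.

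Because Krt8 and Krt18 form 1 filament, their difference within each array was compared between the groups. Krt8 minus Krt18 was -1.28, -1.02 and -0.80 (lowest, median, highest) in DKD+enarodustat rats and -1.05, -0.43 and -0.17 in DKD rats; only the shift between groups has a meaning, since the probes differ. The shift was -0.45 on the log2 scale (SD 0.18 in DKD+enarodustat and 0.31 in DKD, n = 7 each; exact two-sided permutation test p = 0.0111, adjusted p = 0.0221 over 2 pairs). It was -0.28, -0.35 and -0.62 within the slides, but -0.03 within row 2. The corresponding shift of Krt7 minus Krt19 was -1.17 (SD 0.55 in DKD+enarodustat and 1.7 in DKD, exact permutation p = 0.118, adjusted p = 0.118). Without the 2 DKD arrays of row 2 it was -1.69 (adjusted p = 0.0189, exact permutation), but row and group then coincide and cannot be told apart. Without DKD replicate 2 alone it was -1.46 (adjusted p = 0.0291, exact permutation), and within row 2 it was 0.13.

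Set against Sham, DKD+enarodustat rats had lower Krt7 and higher Krt8, Krt18 and Vim. Krt7 fell by 1.12 ± 0.08 on the log2 scale (limma adjusted p = 7.79e-08, lower in 7 of 7 arrays than every Sham array). Krt8 was higher by 0.44 ± 0.10 (adjusted p = 0.00311, limma), with 5 of 7 arrays above every Sham array, and Vim by 0.55 ± 0.13 (adjusted p = 0.00493, limma). Krt18 was higher by 0.49 ± 0.16 (adjusted p = 0.0333, limma), with 4 of 7 arrays above every Sham array, while Krt19 at 1.49 ± 0.72 did not pass (95% interval -0.02 to 3, limma adjusted p = 0.143). Of all genes 6311 or 26.1% passed, 10% as higher and 16% as lower, and 14.4% had groups without overlap, Krt7 among them. The comparison shares its arrays with the other comparisons and gives no separate evidence on them. Krt7 was proposed as lower and Krt8 as higher against these same Sham arrays, so differences in those directions are favoured by that choice. The p-values for Krt7 and Krt8 against Sham, here and with slide row below, do not allow for this.

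Slide row was also fitted as a covariate, which only the DKD arrays can separate from the groups. The Krt7 difference was then -1.01 with a limma adjusted p of 0.001. Krt8 stood at 0.60 (adjusted p = 0.0585, limma), Vim at 0.21 (adjusted p = 0.683, limma) and Krt18 at 0.06 (adjusted p = 0.929, limma). The Krt18 call also ended without Sham replicate 1, 4 or 5 or DKD+enarodustat replicate 5 or 7, where the difference was 0.40 to 0.45 (limma adjusted p 0.0606 to 0.1).

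The 3 probes of Krt7 gave different answers to the question of the drug. All were lower in DKD than in Sham, at -1.02, -0.65 and -1.14 for the first, the second and the third probe (log2). In DKD+enarodustat against DKD the first differed by -0.10 and the third by 0.00, whereas the second read -1.26, -0.95 and -0.71 (lowest, median, highest) in DKD+enarodustat rats and -0.68, -0.61 and -0.44 in DKD rats. On the second probe no DKD+enarodustat array reached a DKD array. Its difference was -0.38 ± 0.08 (limma adjusted p = 0.019 in a fit of all 30259 kept probes), against an adjusted p of 0.999 for the third probe. Over all genes, each read from its brightest probe, 2% passed in this comparison and 1.25% had groups without overlap. The shares over all kept probes are not given here. With the mean of the probes the Krt7 difference was -0.16 (adjusted p = 0.316, limma). Which transcripts each probe reads was not tested.

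The second Krt18 probe had a mean intensity of 150.9 in DKD+enarodustat, 162.1 in DKD and 107.1 in Sham on the scanner's scale. It differed by 0.47 in DKD minus Sham (log2), by -0.06 in DKD+enarodustat minus DKD, and by 0.41 in DKD+enarodustat minus Sham (limma adjusted p = 0.0581 in the probe fit). The first probe gave 0.41, 0.08 and 0.49 in these comparisons.

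**Figure D3:**
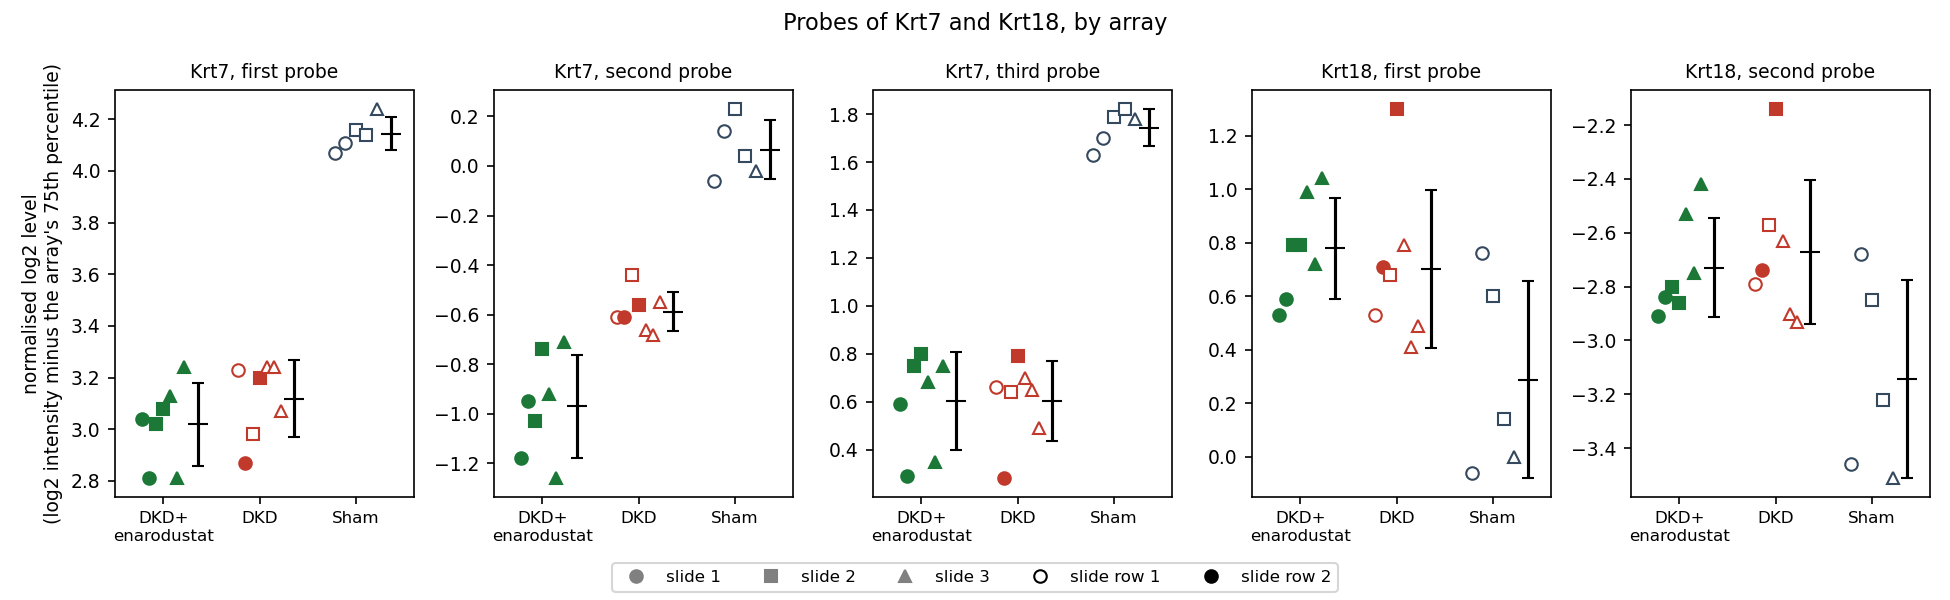
Normalised log2 level (y axis) on each array for the 3 probes of Krt7 and the 2 probes of Krt18, by group (x axis), with slide as marker shape, slide row as open (row 1) or filled (row 2) markers, and mean ± SD. The second Krt7 probe separates DKD+enarodustat, at -1.26 to -0.71, from DKD, at -0.68 to -0.44, which the first and the third probe do not.

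The remaining keratins and other filament genes were read from the same fit. Their lists and those below were chosen with earlier results of these data known, so counts and p-values of listed genes are a description. Of 48 other keratins listed, 18 passed the filter on dim probes; 0 of these were higher and 1 lower in DKD than in Sham, with a median difference of -0.08, against 8.02% higher, 9.07% lower and a median of -0.02 over all genes. The 1 lower gene was Krt10, the type I keratin of differentiating epidermis, at -0.58 ± 0.09 (log2, limma adjusted p = 0.000219). Without DKD replicate 3, 1 of the other keratins passed as higher. Of 12 other intermediate filament genes tested, 2 were higher and 2 lower (1 higher without Sham replicate 1). Nefm, a neurofilament subunit, fell by 1.51 (limma adjusted p = 0.00012) and Synm, which encodes the vimentin- and desmin-binding protein synemin, fell by 0.57 (limma adjusted p = 4.54e-05). Ina, the neuronal filament internexin, was above background on 7 of 7 DKD and 1 of 5 Sham arrays; its difference of 1.81 (limma adjusted p = 0.00305) sets DKD against a Sham mean made mostly of signals not well above background, and its size is not a measured fold.

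Proteins that tie filaments to junctions and membranes were mixed, with 4 of 18 tested genes higher and 3 lower in DKD than in Sham and a median of 0.15 (log2), against 8.02% higher and 9.07% lower of all genes. The lower count was 1 without DKD replicate 4, 5, 6 or 7 or Sham replicate 4, and 0 without Sham replicate 3 or with slide row as a covariate. Eppk1, the keratin- and vimentin-binding cytolinker epiplakin, rose by 1.34 ± 0.19 (limma adjusted p = 8.46e-05). Itgb4, the hemidesmosomal integrin beta subunit that plectin links to keratins, rose by 1.15 ± 0.18 (limma adjusted p = 0.000241), and Evpl, the cytolinker envoplakin, by 0.60 ± 0.11 (limma adjusted p = 0.000829). In DKD+enarodustat against DKD, 0 of the 18 other keratins, 0 of the 12 other filament genes and 0 of the 18 linkers passed in limma. At an unadjusted p under 0.05 there were 0, 2 and 0, among 3316 of all 24217 genes. Among the other filament genes 1 passed as higher without DKD replicate 4 or DKD+enarodustat replicate 1.

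**Figure D4:**
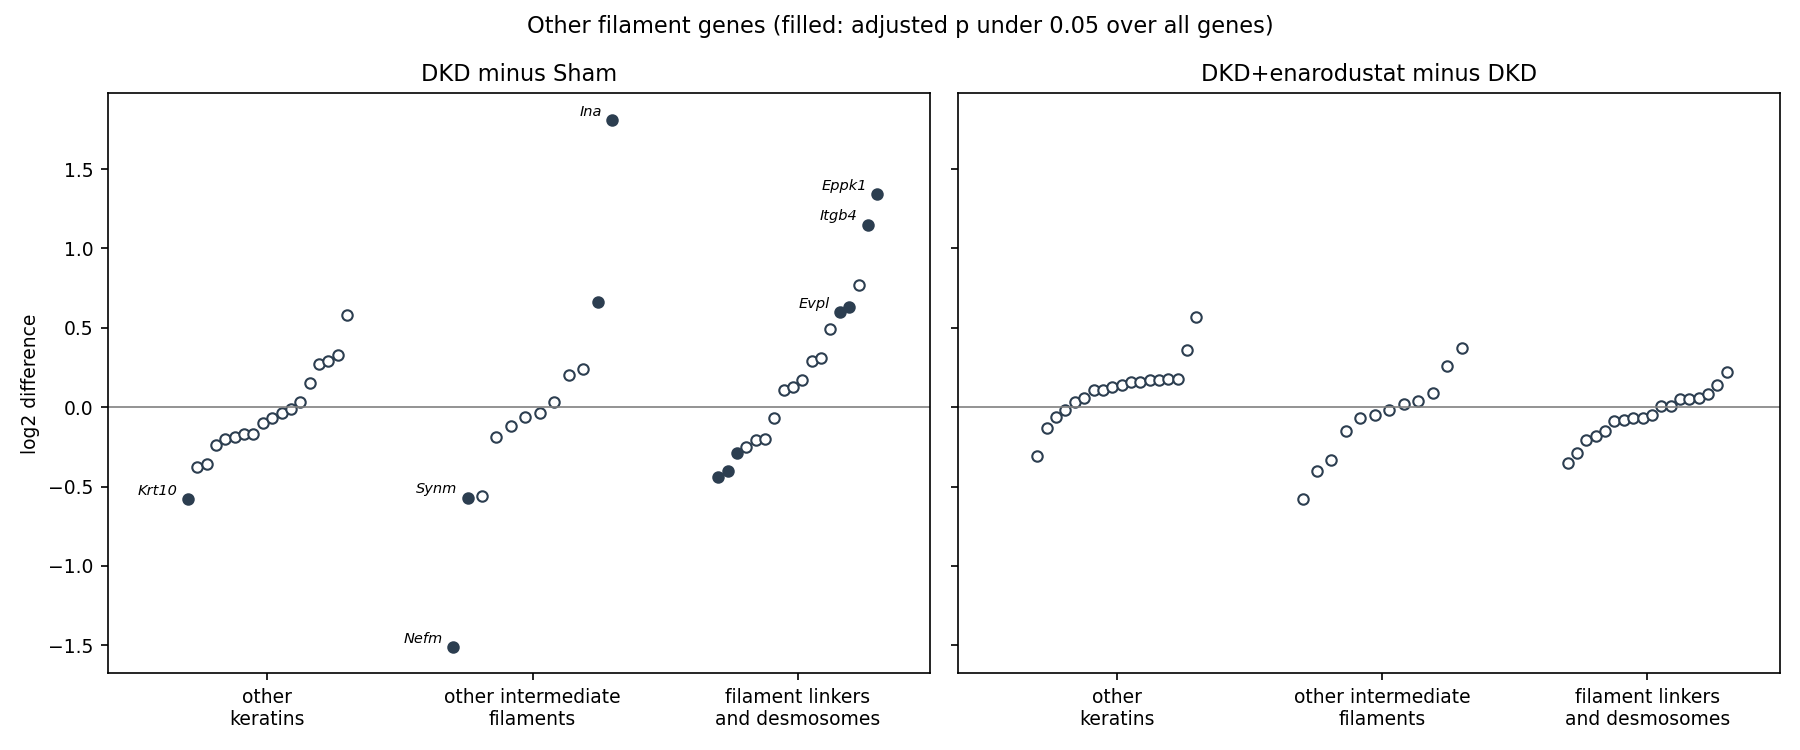
Log2 difference (y axis) of every tested gene in 3 lists (x axis): 18 other keratins, 12 other intermediate filament genes, and 18 filament linkers and desmosomal genes; filled points passed an adjusted p of 0.05 over all genes, and the genes with the smallest adjusted p are named. In DKD minus Sham, Eppk1 and Itgb4 lie above 1 and Nefm lowest, the point of Ina rests on a Sham group above background on 1 of 5 arrays, and in DKD+enarodustat minus DKD no point is filled.

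Tubular injury genes, a list also chosen with earlier results known, were higher for 14 of 28 and lower for 4 of 28 in DKD than in Sham. The median was 0.51 (log2), and 8.02% and 9.07% of all genes were higher and lower. Havcr1, the proximal tubule injury marker KIM-1, rose by 4.88 ± 0.65 (limma adjusted p = 5.62e-05), Cdkn1a, the cell cycle inhibitor p21, by 3.33 ± 0.27 (limma adjusted p = 4.07e-07), and S100a6, a calcium-binding protein, by 0.85 ± 0.10 (limma adjusted p = 2.43e-05). In DKD+enarodustat against DKD the 1 call in this list was Cd24, a surface protein of progenitor-like tubule cells, at 0.49 (limma adjusted p = 0.0306); 1.07% of all genes passed as higher there. The Cd24 call ended without DKD replicate 1, 5, 6 or 7 or DKD+enarodustat replicate 2, 4 or 7, and in 5 of 12 other alternatives, among them slide row as a covariate and the fit of only the 2 groups. Among 22 epithelial and mesenchymal markers 5 were higher and 0 lower in DKD than in Sham, among them the tight junction gene Cldn1 at 1.09, the smooth muscle gene Tagln at 1.02 and S100a4 at 0.44, against 8.02% and 9.07% of all genes. Without Sham replicate 1 the higher count was 3, and without Sham replicate 4 the lower count was 1. The median of that list was -0.02, and in DKD+enarodustat against DKD 0 of its members passed in limma (5 at an unadjusted p under 0.05; 1 passed as lower without Sham replicate 1, DKD replicate 1 or DKD+enarodustat replicate 4).

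Among 22 known regulators of keratin genes, 2 were higher and 1 lower in DKD than in Sham, shares near or below the 8.02% and 9.07% of all genes. These were the epithelial factor Klf5 at 0.57 (limma adjusted p = 0.0189), Klf4 at -0.27 (limma adjusted p = 0.0475), and the AP-1 subunit Fos, which was above background on 6 of 7 DKD and 1 of 5 Sham arrays, so that its difference of 1.23 (limma adjusted p = 0.01) is not a measured fold. The lower count was 0 without Sham replicate 1, 3 or 4, DKD replicate 1, 2, 5, 6 or 7, or DKD+enarodustat replicate 1, 5 or 6, and ranged from 0 to 2 over 12 other alternatives; the higher count was 1 without Sham replicate 5. In DKD+enarodustat against DKD the 1 that passed was Elf3, an epithelial ETS factor, higher by 0.61 (limma adjusted p = 0.00564); Elf3 differed by 0.00 between DKD and Sham, and its call ended with slide row as a covariate.

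Segment markers give the setting of the Krt7 values. In the collecting duct list, 4 of 20 genes were higher and 3 lower in DKD than in Sham, with a median of 0.01, against 8.02% higher and 9.07% lower of all genes, the background for the other segments too. Aqp2, the vasopressin-regulated water channel of principal cells, was higher by 0.61 and Aqp4, its basolateral counterpart, by 1.56, while Kcne1, a potassium channel subunit, was at -2.30; all 3 passed in limma (adjusted p = 6.83e-05, 5.19e-05 and 4.28e-05). The list's summed level was taken on a linear scale with 1 at the 75th percentile of an array, so bright genes weigh most. It was 77 to 110 in DKD+enarodustat, 78.4 to 97.3 in DKD and 72.1 to 86.9 in Sham. Proximal tubule genes were higher for 4 and lower for 10 of 20, and thick ascending limb and distal tubule genes higher for 1 (0 without Sham replicate 3) and lower for 6 of 14, with Egf at -0.92 (limma adjusted p = 3.99e-05). The markers of cortex named for this check, Lrp2, Cubn, Slc34a1, Slc5a2 and Slc22a6 of the proximal tubule and Nphs1 of podocytes, were above background on all 19 arrays.

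Cells outside the tubules that carry keratins or vimentin were followed through their markers. Of the urothelial uroplakins, Upk2 was above background on 0 arrays, Upk3a on 11 of 19, Upk1b on 18 and Upk1a on 19. Upk1b read -6.59 to -4.25 in DKD+enarodustat, -6.05 to -3.94 in DKD and -6.05 to -4.28 in Sham. Upk1a read -5.42 to -4.25 in DKD+enarodustat, -5.47 to -4.62 in DKD and -5.09 to -4.28 in Sham. In DKD against Sham 1 of 14 urothelium genes, the claudin gene Cldn4 at 0.66 (limma adjusted p = 0.0238), was higher and 0 lower, against 8.02% and 9.07% of all genes. The higher count was 0 without Sham replicate 1, 3 or 4, with slide row as a covariate, and without the 2 DKD arrays of row 2. Elf3, which the regulator list also holds, was the 1 call of this list in DKD+enarodustat against DKD. The list's summed level was 2.72 to 3.69 in DKD+enarodustat, 2.1 to 3.2 in DKD and 1.89 to 2.66 in Sham. Within DKD it was 2.79 to 3.2 on the arrays of row 2 and 2.1 to 2.56 on those of row 1. Bright genes weigh most in it: in DKD Elf3 averaged 0.48 and Cldn4 -0.82 (normalised log2), but Upk1b -5.14 and Upk3a -6.64. The sum is thus mostly a reading of Elf3 and Cldn4, not of the uroplakins. The mesothelial marker Msln was above background on 0 arrays, and 2 of 6 genes of its list were higher (Ptgis at 1.35 and the claudin gene Cldn15 at 1.04). Their part in the keratin values was not tested.

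Markers of cells rich in vimentin were followed in the same way. Stromal genes were higher for 4 and lower for 1 of 18 in DKD than in Sham, against 8.02% and 9.07% of all genes, with the matrix genes Fbln1 at 1.32 and Dcn at 0.88, while Pdgfrb, a pericyte marker, had medians of -1.08 in DKD+enarodustat, -0.86 in DKD and -0.94 in Sham. The summed stromal level was 18.1 to 24.1 in DKD+enarodustat, 16.9 to 25.1 in DKD and 19.2 to 21.3 in Sham. Leukocyte genes were higher for 3 and lower for 0 of 19, led by the monocyte gene Cd14 at 0.82. The higher count was 1 without Sham replicate 3, without the 2 DKD arrays of row 2 or with slide row as a covariate, and 5 without DKD replicate 7. The summed leukocyte level was 47.9 to 96.1 in DKD+enarodustat, 40.8 to 64.7 in DKD and 35.9 to 45.4 in Sham. Bright genes weigh most in this sum too: in DKD Lyz2 averaged 4.89 and Cd74 3.2 (normalised log2), but Ptprc -2.11. Ptprc differed by 0.18 in DKD minus Sham (limma adjusted p = 0.659). Endothelial genes were higher and lower for 0 of 16 in limma (2 at an unadjusted p under 0.05; 1 passed as lower without DKD or DKD+enarodustat replicate 1). In the podocyte list 1 of 15 was higher and 2 lower, with Nphs1, the slit diaphragm gene nephrin, at -0.44. Their part in the Vim values was not tested.

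Fat and erythroid markers set 2 DKD arrays apart. Of 8 adipocyte genes 4 were higher and 0 lower in DKD than in Sham, against 8.02% and 9.07% of all genes. Among them Car3 was at 5.97 and Fabp4 at 3.58. Lep was above background on 4 of 7 DKD and 0 of 5 Sham arrays, so its difference is not a measured fold. The list's summed level was 0.892 to 12.6 in DKD+enarodustat, 0.822 to 30.2 in DKD and 0.443 to 0.726 in Sham. It was 28.8 to 30.2 on the DKD arrays of replicates 2 and 4 and 0.822 to 8.27 on the other DKD arrays. Without these 2 arrays the Krt8 difference in DKD+enarodustat against DKD was -0.41 (adjusted p = 0.0267, limma). Slide row and group then coincide and cannot be told apart. The within-row-1 differences of DKD and Sham given for each gene leave these 2 arrays out as well. Erythroid genes were higher and lower for 0 of 7 in limma (0 at an unadjusted p under 0.05), but their summed level was 39 to 49.4 on the same 2 DKD arrays and 7.37 to 21.8 on the other DKD arrays, beside 8.27 to 120 in DKD+enarodustat and 9.47 to 18.7 in Sham. In DKD+enarodustat against DKD, 0 genes passed in limma in the lists of proximal tubule, thick ascending limb and distal tubule, collecting duct, podocyte, mesothelium, endothelium, stroma, leukocytes, adipocytes and erythroid genes, with at most 6 of a list, in the collecting duct, at an unadjusted p under 0.05. Of these lists, leaving out 1 array gave 1 lower call in the collecting duct (without DKD+enarodustat replicate 5) and 1 higher call in the endothelium (without DKD replicate 4 or 6 or DKD+enarodustat replicate 2).

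The genes whose levels followed each member most closely over the 19 arrays were named by Pearson's r, as a description: the arrays share groups and slides, and the members were part of the same contrasts. Krt7 was followed by Arfgef3 (r = 0.974, Spearman's rho = 0.842), Hspbap1 (0.965), Mylk3 (0.961) and Afg1l (0.957), all of which were lower in DKD than in Sham by 1.33 or more on the log2 scale. Krt8 was followed by Pdlim2 (r = 0.902, rho = 0.853), Aass (0.893), Asah1 (0.889), Faf2 (0.881) and Ptp4a1 (0.881). Krt18 had Fas (r = 0.852, rho = 0.753), Tmem171 (0.848), Hip1r (0.813), Fgg (0.811) and Faf2 (0.807). For Vim the genes were Itgb4 (r = 0.941, rho = 0.926), Dcn (0.932), Nol3 (0.927), Scara5 (0.927) and Polr1g (0.924), and for Krt19 Cdipt (r = 0.82, rho = 0.7), Mcm6 (0.807), Mcm5 (0.798), Acsl5 (0.788) and Ggcx (0.787).

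Within the 7 arrays of a group the members were set against each other as a description, over few arrays of shared slides; the 5 Sham arrays were too few for a correlation. Krt8 and Krt18 had r = 0.57 within DKD+enarodustat and 0.16 within DKD. Krt18 and Vim had r = 0.38 within DKD+enarodustat and 0.90 within DKD, where replicate 4 was the highest array for both.

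Krt8 and Krt18 are neighbours on chromosome 7 in the RefSeq order of assembly GRCr8, and Krt7 lies elsewhere on that chromosome between Krt80 and Krt87. Differences of the nearest genes are given for comparison. Next to Krt7, Krt80 differed by 0.03 and Krt87 by 0.13 in DKD minus Sham (log2, limma adjusted p = 0.968 and 0.88), and beside Krt18, Eif4b differed by -0.13 (limma adjusted p = 0.159). Next to Krt19 on chromosome 10, Krt15 differed by -0.38 and Krt9 by -0.36 (limma adjusted p = 0.32 and 0.707). Cubn, the proximal tubule receptor cubilin and a near neighbour of Vim on chromosome 17, was higher by 0.51 (limma adjusted p = 0.000286), and Trdmt1 between them differed by 0.06 (limma adjusted p = 0.895).

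The 250 bases before the start of Krt8, Krt18 and Vim are shown, as the 3 of the 5 members that matched the promoter table, so that the windows of the Krt8 and Krt18 pair and of Vim can be set side by side. They come from RefSeq (GRCr8), 5′ to 3′ on the strand of the gene, with GGGCGG and TATAAA in capitals, on either strand; those of Krt7 and Krt19 are not shown.
Krt8, chr7:135010340-135010589, minus strand: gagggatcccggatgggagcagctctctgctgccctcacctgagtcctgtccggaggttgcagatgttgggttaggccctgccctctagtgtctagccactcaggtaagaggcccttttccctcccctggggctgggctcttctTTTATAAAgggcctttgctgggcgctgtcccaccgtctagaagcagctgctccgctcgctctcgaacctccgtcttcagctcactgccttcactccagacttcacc
Krt18, chr7:135035918-135036167, plus strand: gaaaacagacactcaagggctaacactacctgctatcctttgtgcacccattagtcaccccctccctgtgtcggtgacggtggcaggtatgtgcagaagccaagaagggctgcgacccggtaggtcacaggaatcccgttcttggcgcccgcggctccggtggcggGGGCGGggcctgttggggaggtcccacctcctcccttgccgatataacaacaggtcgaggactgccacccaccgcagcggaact
Vim, chr17:81577011-81577260, plus strand: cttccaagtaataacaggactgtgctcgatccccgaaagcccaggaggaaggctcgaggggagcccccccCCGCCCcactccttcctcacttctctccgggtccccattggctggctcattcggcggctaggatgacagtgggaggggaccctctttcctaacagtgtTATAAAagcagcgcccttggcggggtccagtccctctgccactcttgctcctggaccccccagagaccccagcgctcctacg
TATAAA was found in Krt8 on both strands in overlapping letters that begin 106 and 104 bases before the start, and in Vim 82 bases before it; 12.9% of 33469 rat promoter windows of the same length hold it. GGGCGG, a letter run of GC boxes, was found once in Krt18, 84 bases before the start, and once in Vim on the reverse strand, 180 bases before it, and is in 30.5% of windows. ACGTG, the core of HIF-binding elements with a leading A, GCGTG, the same with a leading G, and TGAGTCA, an AP-1 element, were searched on both strands and were not in these 3 windows; 16.6%, 25.9% and 4.05% of all windows hold them. Matches are to letters only, and nothing about binding follows from them.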

How the data were processed

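Cortical RNA was read on 1-colour (Cy3) Agilent arrays, per the labels. The deposited scanner files give an intensity per spot from Agilent Feature Extraction 11.5.1.1, background-subtracted and detrended array by array, per the file headers. A second table deposited by the authors holds log2 values, whose normalization is not given in the sources used here; it served as an alternative. The tool limma is listed, without version or step, per the submitters' processing notes. The number of arrays limits the precision.

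Log2 of the processed intensity minus each array's 75th percentile was taken, spots of 1 probe were averaged, and probes above background on at least 5 arrays were kept. A gene was read from its brightest kept probe by mean level. Probes were named through RefSeq (21109 names by accession, 1977 through another probe of that file name, 22512 as in the files). The 3 groups were fitted together with lmFit and eBayes of limma 3.58.1 in R 4.3.3 (16 residual degrees of freedom), with Benjamini-Hochberg adjustment over 24217 genes and a threshold of 0.05; the fit was tested on simulated data. Within-array differences of keratin pairs were tested by exact permutation. The labels do not say that replicates of a group are separate litters or days, and p-values measure the spread between these rats.

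Same-numbered arrays lay on 1 slide in 5 of 5 pairs of DKD and Sham and in 7 of 7 pairs of DKD+enarodustat and DKD. Their deviations from group means correlated at 0.132 to 0.595 and at 0.142 to 0.419. The replicate number was therefore fitted as a block in an alternative, whereas the main fits and the permutation tests left it out. The members and the 17 gene lists were chosen with earlier results of these data known. Named genes were the 5 members, the 3 genes of a list with the smallest adjusted p that passed in DKD against Sham or DKD+enarodustat against DKD, defining markers, and the 5 genes closest in pattern to each member; some genes that this rule names are not reported here. Alternatives were normexp with quantile normalization, quantile normalization alone, median centring, the authors' table, other filters, the mean of probes, 2 groups only, slide, slide row, the replicate block, and leaving out arrays.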

Additional observations from a re-analysis of the deposited data

Results flagged for a closer look

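In DKD the lowest Krt8 array, replicate 2 at -0.18, stood apart from the other 6 DKD arrays, the nearest of which was at 0.07 (normalised log2). For Krt18 the highest DKD array, replicate 4 at 1.30, stood apart from the next at 0.79. Both were marked because the gap to the nearest array was a large share of the range of the group (Dixon's test), which chance does for about 1 group in 20; 15 groups were examined and 2 marked. These are the 2 DKD arrays in slide row 2 and those with the highest summed adipocyte level, 28.8 to 30.2 against 0.822 to 8.27 on the other DKD arrays.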

How the results depend on the processing

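Of the group differences, those of Krt7 against Sham kept their direction and side of the threshold under every alternative run, in both diabetic groups; Krt7 in DKD against Sham ranged from -1.16 (quantile normalization alone) to -0.94 (mean of probes), and -1.04 to -0.98 when 1 array was left out. Krt8 and Vim in DKD against Sham also kept direction and side of the threshold, at 0.66 to 0.85 and 0.53 to 0.7 over 12 alternatives. The Krt8 value of 0.66 was that in the authors' table. The Krt8 difference in DKD+enarodustat against DKD lost its call with median centring (-0.39), with no filter, with 2 groups only or with the replicate block (-0.37 each), and with slide row as a covariate (-0.26); leaving out 1 array gave -0.42 to -0.32. The replicate block changed no other call of the 5 genes. Slide row as a covariate turned Krt18 (-0.23) and Krt19 (-0.15) in DKD+enarodustat against DKD and Krt19 against Sham (-0.22), and left DKD+enarodustat against Sham at 0.60 for Krt8, 0.06 for Krt18 and 0.21 for Vim, past no threshold. Krt18 against Sham was 0.46 with median centring, and 0.40 to 0.61 when 1 array was left out; Krt19 against Sham was 0.97 and passed in the authors' table. The Krt7 minus Krt19 shift was -1.69 without the DKD arrays of slide row 2 and -1.46 to -0.77 when 1 array was left out. Genes passing in DKD+enarodustat against DKD numbered 291 with median centring, 1772 in the authors' table, 284 with no filter, 276 with 2 groups, 915 with slide as a block, 84 with slide row as a covariate, and 286 to 497 when 1 array was left out (286 without DKD replicate 6), against 485. In DKD+enarodustat against Sham they numbered 10744 with no filter and 1031 with slide row, against 6311. Over 12 alternatives the calls in DKD against Sham numbered 0 to 1 higher and 1 to 4 lower for the other keratins, 0 to 3 and 2 to 3 for the other filament genes, and 3 to 5 and 0 to 4 for the linkers. The causes were not tested. Depth is not defined for arrays; all member probes were above background.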
